A study of Mus musculus with 15 samples.

Results

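Transcripts of the ATF4 response and of amino acid supply were followed in NRASG12V/Mll-AF9 acute myeloid leukemia after doxycycline shut off NRASG12V. The members were taken by gene symbol from a list of 37 genes, and each was read on its brightest probe set. Of these, 36 were measured among 18193 genes in all, and Pycr1 was not analysed here. The RAS-OFF groups came from doxycycline-treated mice at 48, 60, 72, 84 and 96 h, with 2 arrays at each time, and the RAS-ON group from vehicle-treated mice at 0 h, with 5 arrays. Doxycycline was injected into the peritoneum at 0 h and given in drinking water until sacrifice. All groups share the genotype and the host: SCID/Beige mice were given leukemia cells by tail vein and carried advanced disease at 20 days. These hosts lack functional B and T cells but keep their own erythroid cells, megakaryocytes, macrophages and stroma. RNA came from cells extracted from the leukemic spleens and labelled as primary leukemia cells. The labels do not say whether the arrays came from separate animals or from 1 primary leukemia, so the p-values cover array-to-array spread, which may be technical.

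ATF4 is a transcription factor whose protein is made when cells slow general translation by phosphorylating eIF2 alpha. The kinases that do so answer different stresses, GCN2 (Eif2ak4) to missing amino acids and PERK (Eif2ak3) to unfolded protein in the endoplasmic reticulum. ATF4 then raises genes that make and import amino acids, load tRNAs and, if stress goes on, promote death. Much of the control of ATF4 is at translation, and arrays read RNA only.

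ATF4 binds together with C/EBP proteins at a composite site whose core was searched here as TGATGNAA on both strands. RefSeq promoter windows of assembly GRCm38.p6, from 250 bases before to 50 after the gene start, were found for 31 of the 37 members. Of those, 10 held the core in at least 1 window, or 32.3%, against 4.51% of all 27025 genes with a window. Many of these genes were chosen as ATF4 targets, so this share is a description. The Asns window is shown because Asns had the largest log2 change of the 36 genes as a mean over the 5 RAS-OFF times on the brightest probe set. At 48 and 60 h Cth, which is dim, had larger changes. So did the second probe set of Trib3 in the mean over times (1.78), which is of a type that can cross-hybridise. The Asns window lies on the minus strand at chr6:7693160-7693459 and is written 5′ to 3′ on the gene strand, with the core in capitals.
Asns: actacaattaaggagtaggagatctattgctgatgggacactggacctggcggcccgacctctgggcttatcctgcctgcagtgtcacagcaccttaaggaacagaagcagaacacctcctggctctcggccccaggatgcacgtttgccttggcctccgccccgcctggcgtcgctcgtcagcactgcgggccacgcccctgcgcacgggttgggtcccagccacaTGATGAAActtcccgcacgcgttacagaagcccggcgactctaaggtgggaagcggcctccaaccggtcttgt

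Short stretches around the core are set side by side for other members, first those that rose and then the pair that fell. The capitals read TTNCATCA where the core lies on the opposite strand. The first base of the core stands at position 15 in Trib3, -4 in Slc1a4, -193 in Chac1, -66 in Slc7a11 (which holds another at -47), -102 in Got1 and -112 in Herpud1, counted from the gene start.
Trib3: gctcaggtTTACATCAgccgggcg
Slc1a4: ctcctgcgTTGCATCAtctccagc
Chac1: ccctgccgTTGCATCActcctgcc
Slc7a11: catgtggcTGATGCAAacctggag
Got1: tgcattggTTGCATCAtacaagcc
Herpud1: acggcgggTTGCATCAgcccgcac
Of the 9 measured genes with a core in the window, 5 rose, 2 fell and 2 (Nupr1 and Vldlr) did not pass, close to the 50% and 19.4% of all 36 measured members that rose and fell, so nothing is read from this count. The endoplasmic reticulum stress element, searched by its consensus on both strands, was in 0 of the 31 members' windows and in 0.137% of all genes.

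Setting RAS-OFF against RAS-ON asks which of these genes differed between doxycycline-treated mice with NRASG12V off and vehicle-treated mice with it on. Every RAS-OFF array had both doxycycline and a later time, and every RAS-ON array had vehicle at 0 h. Loss of NRASG12V, doxycycline itself and the added time of disease therefore cannot be told apart in any comparison with RAS-ON. Of the 36 measured genes, 18 rose, 7 fell and 11 did not pass at an adjusted p below 0.05 in limma, a linear model fitted over all genes. Over all 18193 genes, 48.8% passed, with 20.1% higher and 28.7% lower. The median log2 change was 0.19 over the 36 genes and -0.04 over all genes. In 14 genes every RAS-OFF array lay above every RAS-ON array, and in 3 genes every one lay below, where 9.36% and 12% of all genes did so (21.3% in either direction). By role, 4 of 5 regulators and 8 of 10 transporters rose, while the 10 enzymes that make amino acids had 3 rises and 4 falls. Of the 36 genes 27 have more than 1 probe set, 84 in all, and 0 genes had probe sets called in opposite directions. Some probe sets passed and others did not in Atf4, Eif2ak3, Eif2ak4, Gpt2, Shmt2, Slc38a2, Slc7a1, Stc2 and Vldlr. In bulk spleen RNA, fewer cells of a type and less RNA per cell cannot be told apart.

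**Figure D1:**
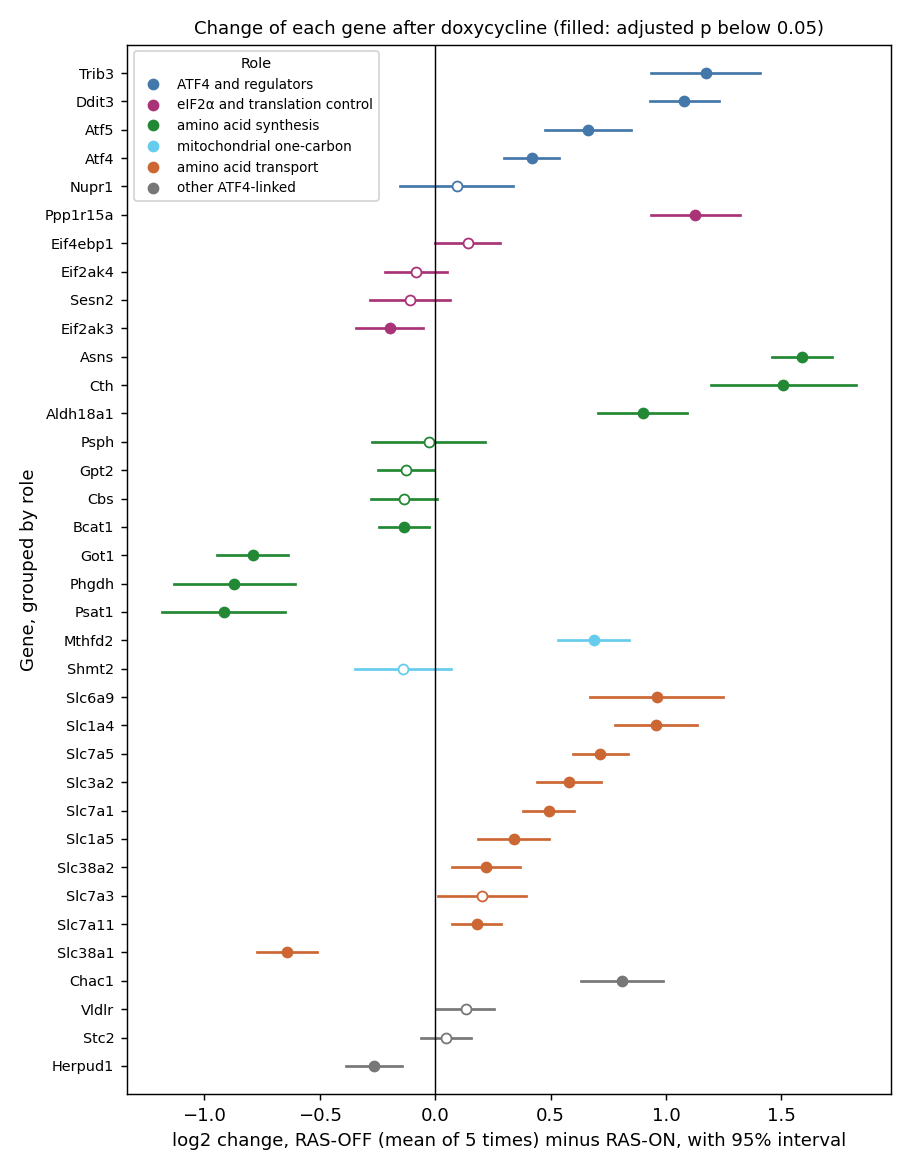
Change of each of the 36 genes as a point with its 95% interval, in log2 units (RAS-OFF mean of 5 times minus RAS-ON), grouped by role from top to bottom; filled points passed the test. Asns and Cth lie farthest to the right, at 1.59 and 1.51, and Psat1 farthest to the left, at -0.92.

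Markers of other cells moved in the same arrays. All 13 measured erythroid markers rose, with a median log2 change of 1.40, and their summed intensity was 101900 to 126700 in RAS-OFF and 42460 to 53250 in RAS-ON arrays. Of 12 markers of myeloid leukemia cells 5 fell, 2 rose and 5 did not pass. Their sums were 45740 to 61770 in RAS-OFF and 85330 to 89710 in RAS-ON arrays. Such a sum gives most weight to bright genes, so it is not a measure of how many leukemia cells there were. Mpo, the myeloperoxidase of myeloid granules, had mean log2 intensities of 12.59 in RAS-OFF and 13.90 in RAS-ON arrays, so it was bright in both groups and fell. Ptprc, which encodes CD45 and is carried by leukocytes in general, had 13.25 in RAS-OFF and 13.08 in RAS-ON arrays and rose. Kit, from the same list, had 10.05 in RAS-OFF and 9.62 in RAS-ON arrays and rose as well. Klf1, the erythroid master factor, was bright in both as well, at 13.16 in RAS-OFF and 11.49 in RAS-ON arrays. Sums were also higher for red pulp macrophages (9 of 12 markers rose and 2 fell; 20000 to 26080 in RAS-OFF and 13460 to 18490 in RAS-ON), megakaryocytes (8 of 8 rose; 23080 to 27970 and 15890 to 20320), stroma (6 of 8 rose and 1 fell; 12380 to 18040 and 10990 to 11700), natural killer cells (5 of 6 rose; 2882 to 4605 and 2231 to 2659) and mature neutrophils (5 of 8 rose; 111100 to 139000 and 95210 to 110700). Their part in the changes of the 36 genes was not tested. On RAS-OFF 96 h replicate 1 the Gapdh 3-prime minus 5-prime difference, a sign of RNA integrity, was 1.22 log2 units, against 0.10 to 0.35 on the other 14 arrays. Without that array 19 of the 36 genes rose and 5 fell.

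Atf4 itself, already bright on the array, rose by a moderate amount. Its log2 intensity ran from 12.09 over a median of 12.26 to 12.32 in the 10 RAS-OFF arrays and was 12.02, 11.80, 11.80, 11.72 and 11.73 in RAS-ON arrays 1 to 5. No RAS-OFF array reached down to the RAS-ON values, although RAS-ON array 1 came close. The change was 0.42 ± 0.06 (SE; adjusted p = 1.9e-05), or 1.34-fold. Of its 2 other probe sets, a bright one rose by 0.36 (adjusted p = 0.000636 over all probe sets) and a dim one had a change of -0.13 (adjusted p = 0.269), and the mean over the probe sets gave 0.22.

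Of the 5 regulators 4 rose. Ddit3, which encodes the death-promoting factor CHOP, had log2 intensities from 9.55 over a median of 9.72 to 10.10 in RAS-OFF arrays, against 8.88, 8.61, 8.86, 8.52 and 8.60 in RAS-ON arrays. It rose by 1.08 ± 0.07 (SE; adjusted p = 1.07e-08), or 2.11-fold. Trib3, a pseudokinase that CHOP and ATF4 induce and that damps ATF4, ran from 8.26 over 8.56 to 8.96 in RAS-OFF arrays and stood at 7.73, 7.54, 6.96, 7.46 and 7.20 in RAS-ON arrays. The groups of both genes lay fully apart. Trib3 rose by 1.17 ± 0.11 (SE; adjusted p = 5.67e-07), and by 1.78 on its second probe set, which is of a type that can cross-hybridise.

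Atf5, a relative of ATF4 that is also controlled at translation, rose by 0.66 ± 0.09 (SE; adjusted p = 1.69e-05). It ran from 9.27 over 9.63 to 10.14 in RAS-OFF arrays and was 8.96, 9.38, 8.89, 8.79 and 8.91 in RAS-ON arrays. RAS-ON array 2 reached above both 84 h arrays, so 8 of 10 RAS-OFF arrays cleared the RAS-ON range. Nupr1, a small stress-induced nuclear protein gene, did not pass: it averaged 8.32 ± 0.28 in RAS-OFF (SD, n = 10) and 8.23 ± 0.23 in RAS-ON arrays (SD, n = 5), a change of 0.09 with a 95% interval of -0.15 to 0.34.

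Among the 5 genes of eIF2 alpha and translation control, Ppp1r15a rose. It encodes GADD34, the phosphatase subunit that takes the phosphate off eIF2 alpha again and so ends the response. Its log2 intensity ran from 11.28 over 11.57 to 12.02 in RAS-OFF arrays and was 10.74, 10.37, 10.45, 10.65 and 10.31 in RAS-ON arrays, with no overlap. The change was 1.13 ± 0.09 (SE; adjusted p = 9.61e-08), or 2.19-fold.

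Of the 2 eIF2 alpha kinase genes among the 36, Eif2ak3 fell and Eif2ak4 did not pass. Eif2ak3 averaged 9.88 ± 0.14 in RAS-OFF (SD, n = 10) and 10.08 ± 0.17 in RAS-ON arrays (SD, n = 5), a fall of 0.20 log2 units (adjusted p = 0.0269 in limma). Leaving out RAS-ON replicate 2, 4 or 5, 72 h replicate 1 or 96 h replicate 1, each alone, ended that call, with adjusted p values of 0.0502 to 0.087. Eif2ak4 had a change of -0.08 (95% interval -0.22 to 0.05), Sesn2, which restrains the growth kinase mTORC1 when leucine is short, one of -0.11 (-0.28 to 0.07), and Eif4ebp1, the translation repressor 4E-BP1, one of 0.14 (0.0016 to 0.28; adjusted p = 0.0886).

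**Figure D2:**
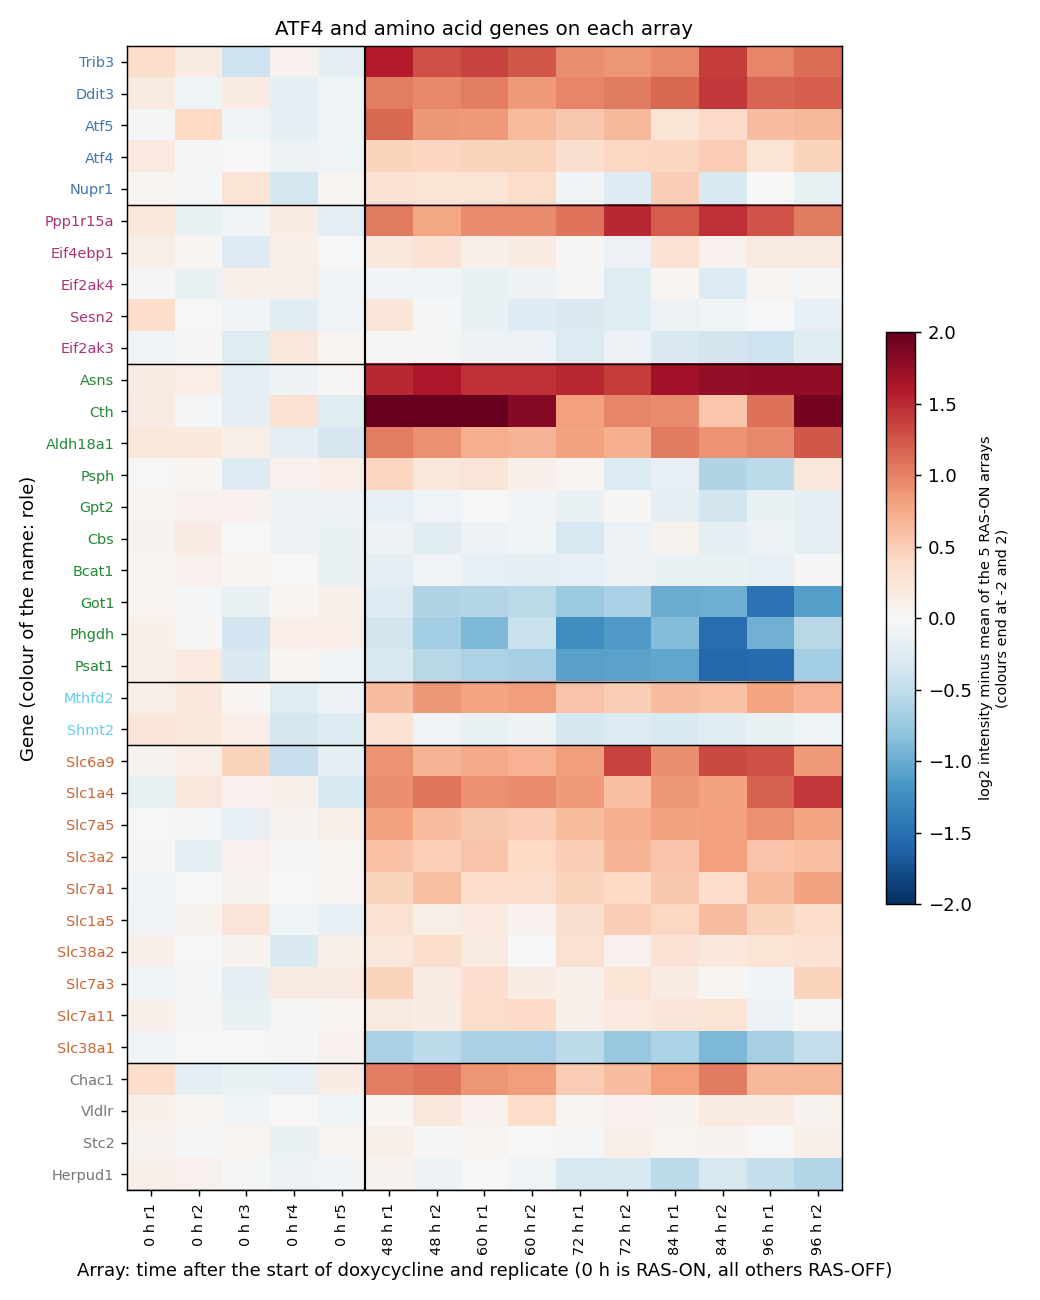
log2 intensity of each of the 36 genes (rows, grouped by role) on each of the 15 arrays (columns, in order of time), as the difference from the mean of the 5 RAS-ON arrays. Asns, Trib3, Ddit3 and Ppp1r15a are red on all 10 RAS-OFF arrays, while Psat1, Got1 and Slc38a1 are blue on all 10.

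The 10 enzymes of amino acid synthesis were split, with 3 rises, 4 falls and 3 that did not pass. Asns, which makes asparagine from aspartate, ran from 11.83 over 12.02 to 12.23 log2 units in RAS-OFF arrays and was 10.60, 10.59, 10.26, 10.36 and 10.48 in RAS-ON arrays. The gap between the groups was wider than the spread within either. It rose by 1.59 ± 0.06 (SE; adjusted p = 7.1e-11), or 3.01-fold. The brightest probe set can cross-hybridise by its type, and the second, of the type designed for a single gene, rose by 1.47.

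Cth, cystathionine gamma-lyase, which makes cysteine from cystathionine, ran from 5.93 over 6.84 to 8.04 in RAS-OFF arrays and was 5.54, 5.36, 5.18, 5.68 and 5.14 in RAS-ON arrays. Every RAS-OFF array lay above every RAS-ON array, but the RAS-OFF arrays were widely spread. The log2 difference was 1.51 ± 0.15 (SE; adjusted p = 7.58e-07). Cth has 1 probe set and is dim, with a mean level at percentile 22 of all genes. No detection call was used here, so whether the RAS-ON values lie above background is unknown, and no fold is given. Cbs, the enzyme just before it in the pathway from methionine, averaged 6.88 ± 0.10 in RAS-OFF (SD, n = 10) and 7.01 ± 0.13 in RAS-ON arrays (SD, n = 5), a change of -0.13 that did not pass (adjusted p = 0.108 in limma).

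Aldh18a1, which starts proline synthesis from glutamate, ran from 11.20 over 11.43 to 11.76 in RAS-OFF arrays and was 10.73, 10.72, 10.64, 10.32 and 10.19 in RAS-ON arrays. RAS-ON arrays 4 and 5 lay lower than arrays 1 to 3, and no RAS-OFF array overlapped either set. The change was 0.90 ± 0.09 (SE; adjusted p = 1e-06), and all 5 probe sets of the gene rose, by 0.46 to 0.90. The brightest can cross-hybridise by its type. The only one of the type designed for a single gene had the smallest rise, 0.46 (adjusted p = 0.012 over all probe sets).

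Of the 3 enzymes of serine synthesis, Psat1 and Phgdh fell and Psph did not pass. Psat1, the transaminase step, ran from 9.45 over 10.16 to 10.72 in RAS-OFF arrays and was 11.12, 11.23, 10.73, 11.07 and 10.98 in RAS-ON arrays, with the highest RAS-OFF array just under the lowest RAS-ON array. It fell by 0.92 ± 0.13 on the log2 scale (SE; adjusted p = 2.44e-05), or to 0.53-fold. Phgdh, the first and committed step, ran from 9.73 over 10.38 to 10.89 in RAS-OFF arrays and was 11.36, 11.29, 10.88, 11.39 and 11.39 in RAS-ON arrays. Only RAS-ON array 3 came down to the RAS-OFF range, where 9 of 10 arrays were lower than it.

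Phgdh fell by 0.87 ± 0.12 on the log2 scale (SE; adjusted p = 3.18e-05). All 4 of its probe sets fell, with changes of -0.32 to -0.87, and all are of a type that can cross-hybridise, and their mean gave -0.56. Psph, the last step, did not pass: it averaged 9.30 ± 0.35 in RAS-OFF (SD, n = 10) and 9.33 ± 0.15 in RAS-ON arrays (SD, n = 5), and its direction turned in 5 of 25 alternative settings.

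Got1, the cytosolic aspartate transaminase of the malate-aspartate shuttle, ran from 8.11 over 8.89 to 9.32 in RAS-OFF arrays and was 9.61, 9.55, 9.42, 9.62 and 9.69 in RAS-ON arrays. No array of the groups overlapped. It fell by 0.79 ± 0.07 on the log2 scale (SE; adjusted p = 3.95e-07). Bcat1, which transaminates branched-chain amino acids, averaged 7.12 ± 0.05 in RAS-OFF (SD, n = 10) and 7.26 ± 0.09 in RAS-ON arrays (SD, n = 5) and fell by 0.14 (adjusted p = 0.0384 in limma).

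The size of the Bcat1 change differed between its probe sets. The 2 dimmer ones fell by 0.54 and 1.33 (adjusted p = 0.000171 and 2.36e-07 over all probe sets). The small call on the brightest was lost without any 1 of 11 of the 15 arrays: RAS-ON replicates 1 to 4, both replicates at 60 h and at 84 h, and replicate 1 at 48, 72 and 96 h, with adjusted p values of 0.0557 to 0.108. Gpt2, the mitochondrial alanine transaminase, had a change of -0.12 (95% interval -0.24 to -0.0044; adjusted p = 0.0809). Of its 4 probe sets only 1, the dimmest, fell (-0.27, adjusted p = 0.00286 over all probe sets). On the brightest, Gpt2 passed downward with arrays centred on their medians (-0.15, adjusted p = 0.0328). It also did so against RAS-ON arrays 1 to 3 (-0.19, adjusted p = 0.0179).

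Of the pair of mitochondrial one-carbon enzymes, which take the serine carbon onward, Mthfd2 rose and Shmt2 did not pass. Mthfd2 ran from 10.87 over 11.04 to 11.25 in RAS-OFF arrays and was 10.50, 10.59, 10.41, 10.14 and 10.26 in RAS-ON arrays, with no overlap and a change of 0.69 ± 0.07 (SE; adjusted p = 1.69e-06). Shmt2 ran from 10.59 over 10.78 to 11.21 in RAS-OFF arrays, inside or beside the RAS-ON values of 11.17, 11.14, 11.06, 10.59 and 10.66. The direction of Shmt2 rests on which RAS-ON arrays are used: -0.34 against arrays 1 to 3 (adjusted p = 0.00134) and 0.16 against arrays 4 and 5 (adjusted p = 0.158).

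Amino acid transporters rose in 8 of 10 cases, with 1 fall and 1 that did not pass. The system L importer of large neutral amino acids is a dimer of LAT1 (Slc7a5) and 4F2hc (Slc3a2). Slc7a5 ran from 11.46 over 11.71 to 11.86 log2 units in RAS-OFF arrays and was 10.96, 10.93, 10.78, 11.02 and 11.07 in RAS-ON arrays. Slc3a2 ran from 11.39 over 11.56 to 11.81 in RAS-OFF arrays and was 11.01, 10.79, 11.07, 11.01 and 11.04 in RAS-ON arrays. Both subunits were higher on every RAS-OFF array than on any RAS-ON array. Their changes were 0.72 ± 0.06 (SE; adjusted p = 7.76e-08) and 0.58 ± 0.06 (SE; adjusted p = 2.96e-06).

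Slc1a4, the ASCT1 carrier of alanine, serine and cysteine, rose by 0.96 ± 0.08 (SE; adjusted p = 2.3e-07). It ran from 7.53 over 7.84 to 8.33 in RAS-OFF arrays and was 6.77, 7.15, 7.01, 7.04 and 6.62 in RAS-ON arrays, and all 3 of its probe sets rose. Slc6a9, the glycine transporter GlyT1, which supplies glycine for haem in red cell precursors, ran from 10.74 over 10.94 to 11.42 in RAS-OFF arrays and was 10.13, 10.19, 10.50, 9.60 and 9.88 in RAS-ON arrays. No overlap was seen, but the RAS-ON arrays were spread widely, with arrays 4 and 5 lowest. Slc6a9 rose by 0.96 ± 0.13 (SE; adjusted p = 3.19e-05), beside the median rise of 1.40 for erythroid markers, whose part in its change was not tested.

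Slc7a1, the cationic carrier CAT1 for arginine and lysine, ran from 11.08 over 11.18 to 11.53 in RAS-OFF arrays and was 10.65, 10.72, 10.80, 10.72 and 10.77 in RAS-ON arrays. It rose by 0.49 ± 0.05 (SE; adjusted p = 1.61e-06) on this probe set, while its 2 dimmer ones had changes of 0.05 each that did not pass. Smaller rises were those of Slc1a5, the glutamine carrier ASCT2, by 0.34 ± 0.07 (SE; adjusted p = 0.00111), of Slc38a2 (SNAT2) by 0.22 ± 0.07 (SE; adjusted p = 0.0158) and of Slc7a11, the cystine carrier xCT, by 0.18 ± 0.05 (SE; adjusted p = 0.00753). For these 3 genes 7, 8 and 8 of the 10 RAS-OFF arrays lay above all RAS-ON arrays. Slc7a11 is dim, at percentile 30.8, had a change of -0.05 at 96 h and did not pass with the replicate number as a block (0.12, adjusted p = 0.181), while the mean of its probe sets gave 0.42. For Slc7a1 and Slc1a5 that mean gave 0.20 and 0.51. Slc38a2 did not pass when its probe sets were averaged (change 0.07, adjusted p = 0.422) or when RAS-ON arrays 1 to 3 were the only controls (adjusted p = 0.0576).

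Slc38a1, the glutamine carrier SNAT1, was the transporter that fell. It ran from 9.89 over 10.14 to 10.31 in RAS-OFF arrays and was 10.73, 10.78, 10.77, 10.76 and 10.87 in RAS-ON arrays, where the 5 values lay close together. It fell by 0.64 ± 0.06 on the log2 scale (SE; adjusted p = 5.83e-07), and its second probe set fell by 0.84. The cationic carrier gene Slc7a3 did not pass (change 0.20, adjusted p = 0.0737). It did when 1 of 3 arrays was left out: RAS-ON replicate 4 (adjusted p = 0.0449), RAS-ON replicate 5 (0.0474) or 96 h replicate 1 (0.017).

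Of the 4 remaining ATF4-linked genes, Chac1 rose. It encodes an enzyme that degrades glutathione and ran from 8.83 over 9.16 to 9.39 in RAS-OFF arrays, against 8.67, 8.14, 8.19, 8.16 and 8.47 in RAS-ON arrays. The groups lay apart, with a change of 0.81 ± 0.08 (SE; adjusted p = 1.29e-06). Herpud1, a membrane protein of the endoplasmic reticulum that helps degrade misfolded proteins, averaged 10.30 ± 0.23 in RAS-OFF (SD, n = 10) and 10.56 ± 0.09 in RAS-ON arrays (SD, n = 5). Its fall of 0.26 ± 0.06 (SE; adjusted p = 0.0012) did not pass with RAS-ON arrays 4 and 5 as the only controls (adjusted p = 0.0639). Neither Vldlr, a lipoprotein receptor gene, nor Stc2, a secreted stress-induced glycoprotein gene, passed on its brightest probe set (changes 0.13 and 0.05), but 1 dimmer probe set of each rose, by 0.38 and 0.45. Vldlr passed without RAS-OFF 60 h replicate 1 (change 0.16, adjusted p = 0.0272).

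Over the times after doxycycline, 15 genes were higher at 48 h, 16 at each of 60, 72, 84 and 96 h, and 3, 4, 5, 7 and 6 were lower. In all, 18, 20, 21, 23 and 22 of the 36 passed, where 27.4%, 25.8%, 31.8%, 36.8% and 37.6% of all genes did. The share of all genes called higher was 13.7%, 11.5%, 13.4%, 15% and 16.7% over these times, and lower 13.7%, 14.2%, 18.3%, 21.8% and 20.9%. These 5 comparisons share the RAS-ON arrays. The count of genes lower at 48 h was 1 without 48 h replicate 2, and at 60 h it was 2 without 60 h replicate 1. The 14 genes that rose at all 5 times were the same 14 genes whose RAS-OFF arrays all lay above the RAS-ON arrays. Both measures rest on the same arrays, so the match adds no separate evidence. Got1, Phgdh and Slc38a1 fell at all 5 times. The share of all genes that rose or fell at all 5 times was not computed, so nothing is read from these counts. Psat1 passed from 60 h on, with -0.43 at 48 h (adjusted p = 0.109).

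The slope, per 12 h, was taken over the RAS-OFF group means, and the RAS-ON arrays entered it only through the shared estimate of spread. It passed downward in 6 of 36 genes and upward in 0, against 8.75% and 5% of all genes in limma (13.7% in either direction), and at an unadjusted p below 0.05 it was downward in 8 and upward in 6. Without 48 h replicate 1 the downward count was 2, and without 96 h replicate 1, whose Gapdh difference stood apart, it was 3. Without RAS-ON replicate 3 the slope passed upward in 2 genes. A joint test of any difference among the 5 times passed for Herpud1, Cth and Got1, where 5.45% of all genes passed.

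Got1 declined steadily. Its mean log2 intensity was 9.15, 9.02, 8.89, 8.60 and 8.29 from the earliest to the latest RAS-OFF time, against 9.58 in RAS-ON arrays. The slope was -0.21 ± 0.03 per 12 h (SE; adjusted p = 0.000396) and passed in all 25 alternative settings.

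Herpud1 was at 10.54 at 48 h and 10.52 at 60 h, beside 10.56 in RAS-ON arrays, and then at 10.25, 10.14 and 10.03. Its slope was -0.14 ± 0.02 per 12 h (SE; adjusted p = 0.00109), and it passed against RAS-ON from 72 h on.

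Cth was highest early. Its arrays read 8.04 and 7.39 at 48 h, 7.67 and 7.21 at 60 h and 6.20 and 6.35 at 72 h. Later pairs read 6.32 and 5.93 (84 h) and 6.48 and 7.29 (96 h), so the last pair lay above the 84 h pair. Its change from RAS-ON was 2.33 at 48 h and 0.74 at 84 h, and both times passed (adjusted p = 2.83e-06 and 0.0167). The slope of -0.30 ± 0.06 per 12 h (SE; adjusted p = 0.00422) was lost without 48 h replicate 1 (adjusted p = 0.0557).

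Psat1 stood at mean log2 intensities of 10.60, 10.38, 9.95, 9.72 and 9.91 over the 5 times, with the 96 h arrays far apart at 9.49 and 10.34. Its slope of -0.20 ± 0.05 (SE; adjusted p = 0.0155) was lost without 48 h replicate 1 (adjusted p = 0.119) and without 96 h replicate 1 (adjusted p = 0.134). Psph, which did not pass against RAS-ON as a mean over the 5 times, had a slope of -0.15 (adjusted p = 0.0441). It did not pass without RAS-ON replicate 1 or 2, either array at 48, 60 or 72 h, 84 h replicate 2 or 96 h replicate 1, with adjusted p values of 0.0517 to 0.335. Atf5 had a slope of -0.12 (adjusted p = 0.0428), which did not pass without RAS-ON replicate 1, 48 or 60 h replicate 1, or either array at 72, 84 or 96 h (adjusted p = 0.0558 to 0.293). The mean of Asns was 12.02, 11.92, 11.90, 12.18 and 12.23 over the 5 times and that of Atf4 12.25, 12.27, 12.18, 12.28 and 12.18, and neither slope passed (adjusted p = 0.0859 and 0.755).

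**Figure D3:**
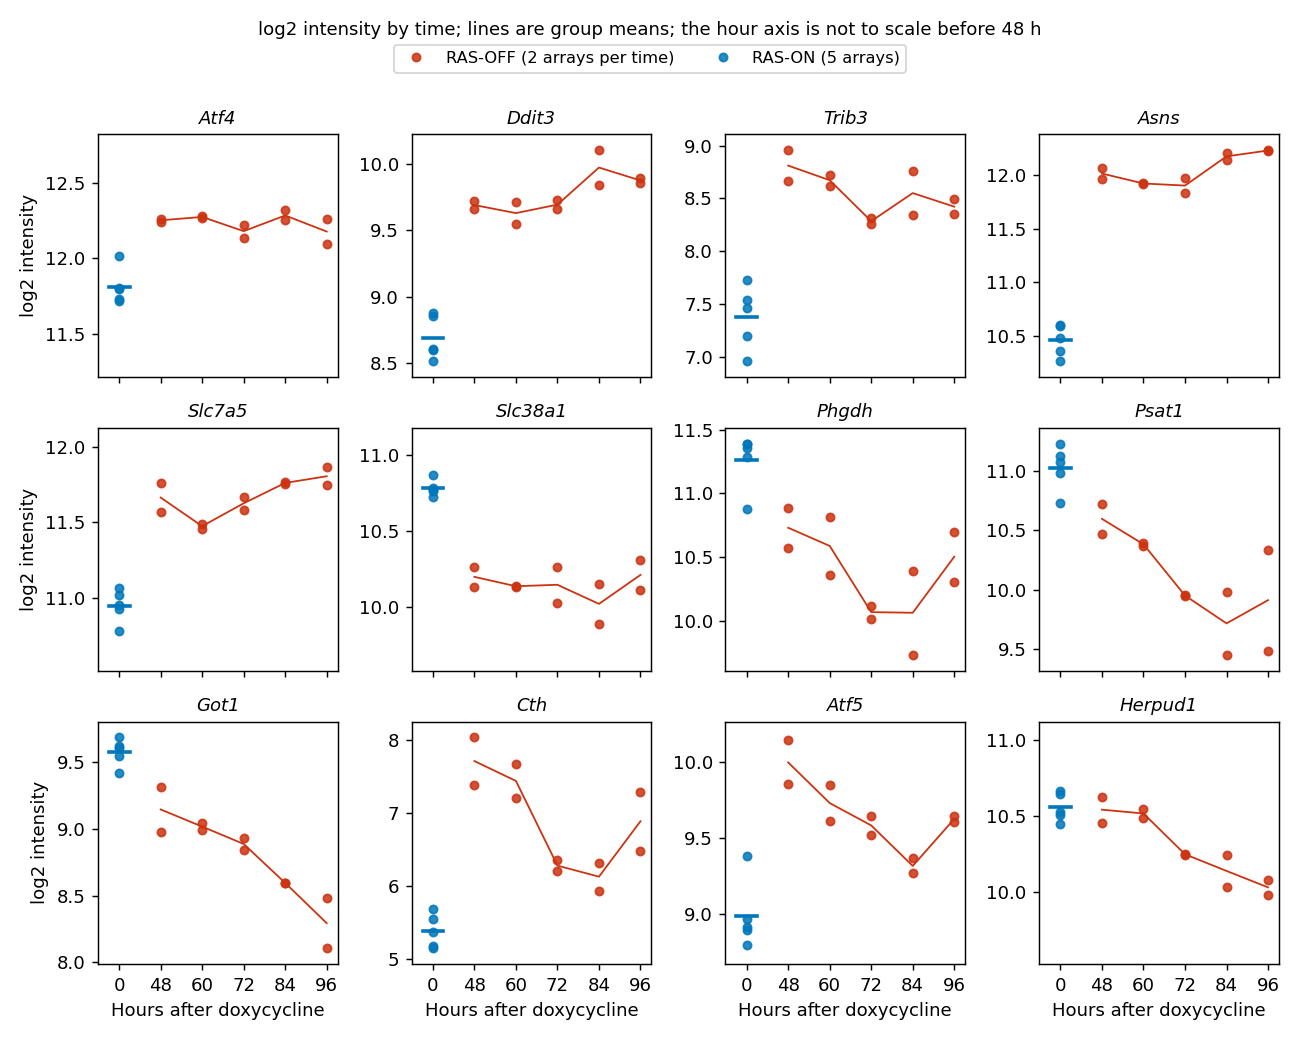
log2 intensity of 12 of the genes on each array (points) by hours after doxycycline, with 5 RAS-ON arrays at 0 h and 2 RAS-OFF arrays at each later time; lines and bars are group means, and the hour axis is not to scale before 48 h. Got1 ends at a mean of 8.29 at 96 h, and Cth has its highest mean, 7.71, at 48 h.

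Neighbouring pathways were read as lists of other genes, whose counts stand beside the 20.1% higher and 28.7% lower of all genes. Of 15 other measured genes known to answer ATF4, 4 rose and 5 fell, near those shares, with a median log2 change of -0.02. Pck2, the mitochondrial form of phosphoenolpyruvate carboxykinase, rose by 0.91 ± 0.07 (SE; adjusted p = 3.42e-08), and Map1lc3b, an autophagosome coat protein gene, by 0.62 ± 0.05 (SE; adjusted p = 8.86e-08). Cebpb, a C/EBP factor of myeloid cells, fell by 1.51 ± 0.08 (SE; adjusted p = 2.35e-09), and Ddit4, an inhibitor of mTORC1, by 1.32 ± 0.29 (SE; adjusted p = 0.0017).

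Of 19 cytosolic tRNA synthetases, the enzymes that load tRNAs, 8 rose and 5 fell, with a median of 0.10. Cars and Aars, for cysteine and alanine, rose by 0.70 and 0.55, and Kars and Vars, for lysine and valine, fell by 0.43 and 0.40. Of 11 other genes of the eIF2 step 5 rose and 3 fell, with a median of 0.11. The largest rise there was that of Eif2ak1, the haem-regulated eIF2 alpha kinase HRI, which is best known from red cell precursors. It rose by 0.75 ± 0.11 (SE; adjusted p = 5.3e-05). The erythroid markers rose in the same arrays, and their part in its change was not tested.

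Among 21 other amino acid transporters 5 rose, 6 fell and 10 did not pass (median -0.07), which is close to the shares of all genes. Slc38a5, the glutamine carrier SNAT5, and Slc43a1, the system L carrier LAT3, rose by 1.54 ± 0.07 and 1.49 ± 0.08 (SE), and Slc7a6, the exchanger y+LAT2, fell by 1.04 ± 0.06 (SE). Of 25 other enzymes of amino acid and one-carbon metabolism 7 rose and 13 fell (median -0.16). The pair of arginases moved apart: Arg2, the mitochondrial form, rose by 1.65 ± 0.09 (SE; adjusted p = 3.09e-09) and Arg1, the cytosolic form, fell, with a log2 difference of -2.63 ± 0.24 (SE; adjusted p = 3.6e-07). Arg1 was dim in RAS-OFF arrays, at 4.62 to 5.30, and widely spread in RAS-ON arrays, at 6.25 to 8.41, so the size of its fall is uncertain. Gclm, a subunit of the first enzyme of glutathione synthesis, rose by 1.22 ± 0.05 (SE; adjusted p = 1.74e-10).

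The other arms of the unfolded protein response raise chaperones of the endoplasmic reticulum and share Ddit3 and Herpud1 as outputs with the PERK arm. Of 18 genes of chaperones and that response 15 fell and 1 rose, with a median of -0.49. Edem1, which sorts misfolded glycoproteins for disposal, fell by 1.31 ± 0.06 (SE; adjusted p = 3.74e-10), and Sdf2l1, a chaperone-linked protein gene of the endoplasmic reticulum, by 1.05 ± 0.09 (SE; adjusted p = 2.58e-07). The 1 rise was that of the co-chaperone gene Dnajb9, by 0.26 ± 0.05 (SE; adjusted p = 0.00104).

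**Figure D4:**
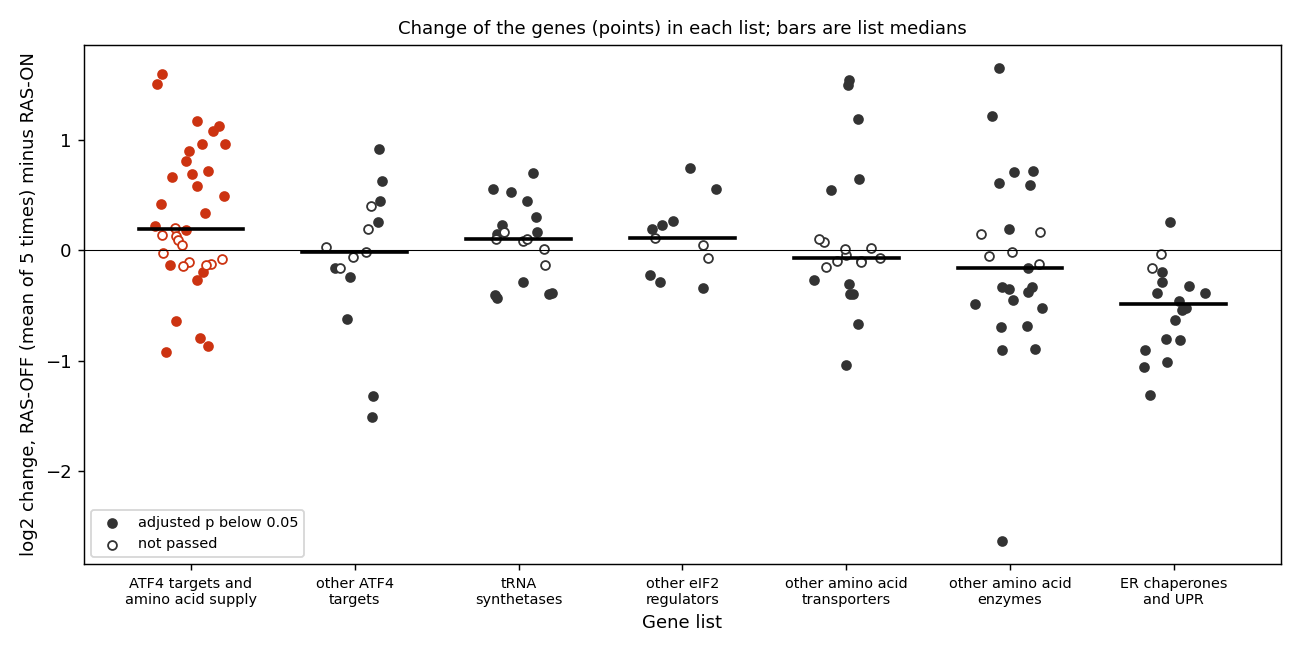
log2 change (RAS-OFF mean of 5 times minus RAS-ON) of each gene in 7 lists, with filled points for genes that passed and a bar at each median. The bar stands at 0.19 for the ATF4 and amino acid supply genes and at -0.49 for the chaperones of the endoplasmic reticulum.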

How the data were processed

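Spleen leukemia RNA was read on arrays of 45101 probe sets. The authors deposited 1 intensity for each probe set on each array, and per the submitters' processing notes the tool was RMA, whose settings no source used here gives. All value columns were used. The values are linear, so log2 was taken. RMA as usually run gives arrays similar distributions, so a shift of most genes one way would not be visible.

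Of the probe sets, 34945 had 1 gene symbol in the platform annotation, giving 18193 genes, each read on its brightest probe set, with no filter on dim genes. limma 3.58.1 in R 4.3.3 was fitted to 15 arrays with 1 mean per group, with Benjamini-Hochberg adjustment across the genes. Tested were the mean over 5 RAS-OFF times minus RAS-ON, each time minus RAS-ON, the slope per 12 h, and a joint F test among RAS-OFF times. Errors of changes are standard errors; SDs over 10 RAS-OFF arrays include differences between times. The code was tested on simulated data. Precision is limited by how many arrays there are.

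The members, the other lists, the tests and the alternatives were chosen with earlier results of these data known. All 36 measured members were named. From the other lists up to 2 called rises and 2 called falls, and from each marker list up to 3 genes, were named. Promoters came from RefSeq. The 25 alternatives varied the choice of probe set, the dim-gene filter, array centring, the variance model, array weights, a replicate block and the arrays included.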

Additional observations from a re-analysis of the deposited data

Results flagged for a closer look

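In 5 of 36 genes 1 RAS-ON array stood apart from the other 4 by Dixon's test, which chance does in about 1 of 20 groups. The genes share these arrays, and the share of all genes flagged on them was not computed, so no excess is read from this count. Atf4 was high in RAS-ON replicate 1, at 12.02 against 11.72 to 11.80. Phgdh was low in RAS-ON replicate 3, at 10.88 against 11.29 to 11.39, and so was Eif4ebp1, at 10.62 where the other 4 began at 10.89. Slc3a2 was low in RAS-ON replicate 2, at 10.79 against 11.01 to 11.07. Slc38a2 was low in RAS-ON replicate 4, at 10.86 against 11.15 to 11.25.

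A slope over the RAS-OFF groups per 12 h passed in 6 of 36 genes, or 16.7%, where 13.7% of all genes passed in limma. Of these 6, only Cth, Got1 and Herpud1 also passed the joint test among times. The slopes of Psph and Atf5 passed in just 12 and 14 of 25 alternatives. The log2 slopes were -0.30 for Cth, -0.21 for Got1, -0.20 for Psat1, -0.15 for Psph, -0.14 for Herpud1 and -0.12 for Atf5. In the same 5 groups the summed intensity of myeloid leukemia markers was 61770 and 58660 at 48 h and 45740 and 46210 at 96 h; its part in these slopes was not tested.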

How the results depend on the processing

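Of 36 genes, the count that passed between RAS-OFF and RAS-ON stayed at 22 to 28 over 25 alternatives, with 16 to 19 rises and 5 to 9 falls, against 25, 18 and 7. The low count of 22 came with the dimmest 40% of genes left out, where only 29 of the 36 were tested. Without the 48, 84 and 96 h replicate 1 arrays 18 rose and 5 fell. The labels do not say that replicate numbers pair arrays, and same-numbered arrays deviated together at a correlation above 0.1 in 2 of 15 pairs of groups (-0.23 to 0.22). With the replicate block 16 rose and 9 fell. With it Slc7a11, Slc38a2 and Eif2ak3 lost their calls, and Sesn2, Shmt2 and Cbs passed downward.

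Genes lower at 72 h numbered 8, against 5, in the mean of probe sets, with the replicate block and against RAS-ON arrays 1 to 3. Slopes passed in 10 genes (3 upward) against RAS-ON arrays 4 and 5, in 1 gene without the 3 arrays above, and upward in 1 gene with the replicate block. The joint test of times passed in 6 genes with array weights, 5 against RAS-ON arrays 4 and 5, and 0 without the 3 arrays (limma; 9 at an unadjusted p below 0.05).

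Leaving out 1 array at a time, slopes passed in 2 to 9 genes (2 to 7 downward, 0 to 2 upward), the joint test in 2 to 4, and genes lower numbered 1 to 4 at 48 h, 2 to 5 at 60 h and 4 to 6 at 72 h. Direction turned for genes that did not pass in either setting: Psph, at -0.1021 to 0.0474 with single arrays left out (0.0041 without RAS-ON replicate 5, 0.0024 without 72 h replicate 2, 0.0166 without 84 h replicate 2, 0.0474 without 96 h replicate 1) and 0.0418 against RAS-ON arrays 1 to 3; Nupr1, at -0.0071 against those arrays and -0.0032 without the 3 RAS-OFF arrays (up to 0.1725 without 84 h replicate 2); and, against RAS-ON arrays 4 and 5, Sesn2 at 0.0452 and Shmt2 at 0.1577. The cause of these shifts was not tested.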
